A study of Mus musculus with 6 samples.

Results

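Interleukin 10, the chains of interleukin 35, the interleukin 10 receptor, the factors Maf and Prdm1 and the effector Fgl2 were followed in regulatory T (Treg) cells sorted from tumours. These are 8 genes chosen by symbol (Il10, Ebi3, Il12a, Il10ra, Il10rb, Maf, Prdm1 and Fgl2), and all 8 had a row among the 55450 genes of the table. The 6 libraries came from MC38 colon carcinomas of about 8 mm diameter grown in C57BL/6 mice. By their labels, 3 libraries held Treg cells with Tim-3 (called sufficient) and 3 held Treg cells deficient in it (called deficient). The allele and its driver, the part of the gene that is altered, the age of the mice, the sort gate and the number of mice per library are not given in the sources used here. Columns were marked A1, B1, C1, D or with a calendar date, 1 dated library per group, and the libraries are called by these marks. P-values measure the spread between libraries, which may be technical.

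Interleukin 10 is a cytokine through which Treg cells restrain myeloid and T cells, above all at mucosal surfaces and in inflamed tissue. It binds a receptor of a ligand-binding chain (Il10ra) and a shared chain (Il10rb), which signals through the kinases Jak1 and Tyk2 to Stat3. In T cells the bZIP factor c-Maf and the zinc finger factor Blimp-1 (Prdm1) promote Il10 transcription. Interleukin 35 is a heterodimer of Ebi3, which resembles a soluble cytokine receptor, and the helical p35 chain encoded by Il12a. Each chain also pairs with other partners, Ebi3 with Il27 in interleukin 27 and p35 with Il12b in interleukin 12. Fgl2 is a fibrinogen-like protein that Treg cells can secrete and that binds inhibitory and activating Fc receptors.

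Levels are given as log2(TPM + 1). TPM is a share of all transcripts, corrected for transcript length and scaled to 1000000, so levels can be compared between genes, but it keeps no read counts and the depth is unknown. Havcr2, the gene of Tim-3, stood at 5.70, 5.64 and 4.49 in sufficient A1, B1 and dated and at 3.54, 4.27 and 2.55 in deficient C1, D and dated. Its RNA was lower in each deficient library but not absent, at 10.6, 18.3 and 4.84 TPM, and deficient D lay close to sufficient dated. The log2 fold change of Havcr2 was -1.83 (limma adjusted p = 0.211, and 0.0148 with the date mark as a block). All 8 defining Treg markers examined were present and tested, and 0 passed in limma with all 6 libraries or with that block. Their summed TPM was 6050 to 8240 in sufficient and 5020 to 6450 in deficient libraries, and 6 of the 8 fold changes were negative. Foxp3, the lineage factor, lay between 4.82 and 5.56. Cd3e and Cd3d, chains of the CD3 complex of the T cell receptor, stood lower in each deficient library, at -0.32 and -0.51 (limma adjusted p = 0.435 and 0.3). That pattern was shown by 6.73% of all tested genes. Il2ra, the high-affinity interleukin 2 receptor chain, passed among the undated libraries at -1.22 (adjusted p = 0.0178 in limma). That fit called 0.864% of all tested genes lower. In the dated pair Il2ra went the other way, at 0.43. With all 6 libraries its groups overlapped (-0.67, limma adjusted p = 0.464). The part of these marker differences in the Il10 and Maf results was not tested. Summed TPM of 12 macrophage markers was 135, 944 and 28.3 in sufficient A1, B1 and dated and 1380, 22.3 and 21.7 in deficient C1, D and dated. The deficient dated library had 4 Y-linked genes at 0.01 or below, where the other 5 libraries held 2.61 or more of each.

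Il10 was the most abundant of the 8 genes in sufficient cells. By the group means of log2(TPM + 1), Il10 was 3.04-fold lower in deficient cells and Maf 1.97-fold lower. Neither passed the threshold over all genes with all 6 libraries, and both passed in limma when the date mark entered as a block, a fit that called 0.856% of all tested genes lower. Both also passed among the 4 undated libraries alone, where limma called 0.864% of genes lower. Ebi3, Prdm1, Il10ra, Il10rb and Fgl2 overlapped between the groups. Il12a was listed at 0 in every library. Of the 7 genes that reached 1 TPM in at least 3 libraries and were tested, limma called 0 at an adjusted p under 0.05, against 0.206% of the 12155 genes tested. At an unadjusted p under 0.05 there were 2, Il10 and Maf, where 11.7% of all tested genes lay.

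**Figure D1:**
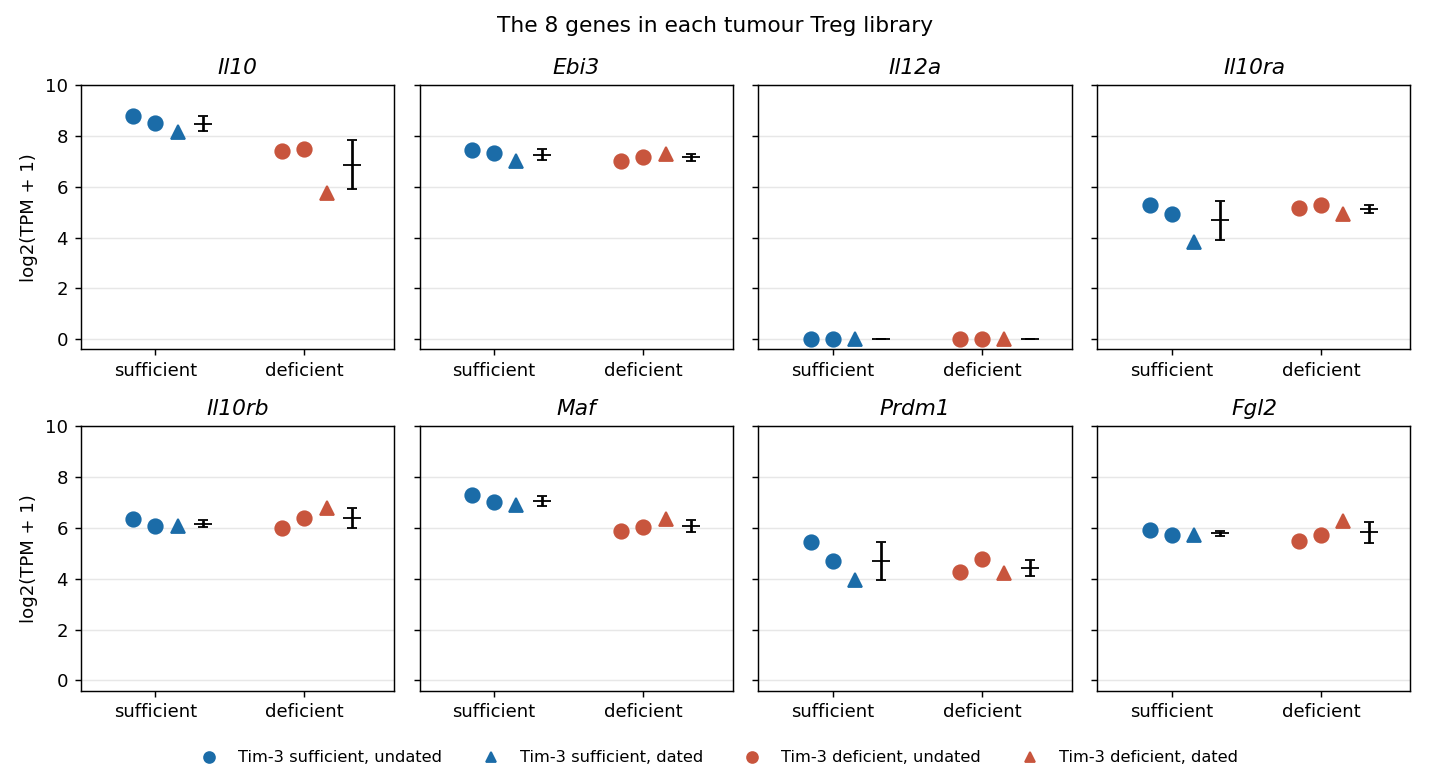
Level of each of the 8 genes in log2(TPM + 1), 1 point per library, by group (circle, undated; triangle, dated); black bars show mean and SD of each group (n = 3). Il10 lies at 8.15 or above in sufficient and at 7.47 or below in deficient libraries, Maf separates likewise, and Il12a is at 0 throughout.

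Il10 (ENSMUSG00000016529.5, GRCm38 chromosome 1, 131019845 to 131024974, plus strand, 5 exons) stood at 8.77, 8.51 and 8.15 in sufficient A1, B1 and dated, and at 7.39, 7.47 and 5.76 in deficient C1, D and dated. In TPM these values are 435, 365 and 283 against 166, 176 and 53.2. The groups did not overlap, and the deficient dated library lay far below the other two deficient ones. The mean was 8.48 ± 0.31 (SD, n = 3) in sufficient and 6.87 ± 0.96 (SD, n = 3) in deficient cells. The log2 fold change, deficient minus sufficient, was -1.60 with a standard error of 0.43 and a 95% interval from -2.60 to -0.61, a 3.04-fold lower level. Its limma adjusted p was 0.214 and its unadjusted p ranked 332 among 12155 genes. An exact two-sided permutation test gave p = 0.1, the smallest value that 3 libraries against 3 allow. Fewer Il10-producing cells and less Il10 RNA per cell cannot be told apart in such bulk libraries.

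The Il10 difference was also taken within each date mark. It was -1.21 among the 4 undated libraries (adjusted p = 0.0178 in limma) and -2.39 in the dated pair, which has no replicate. The dated libraries also differed in Y-linked RNA, which the sufficient one held and the deficient one all but lacked. The part of this in the Il10 difference was not tested. In a limma fit blocked by date mark, the fold change of -1.60 had a standard error of 0.23 and an adjusted p of 0.025. Without the deficient dated library the fold change was -1.05 (adjusted p = 0.061 in limma). A limma term for the difference between undated and dated contrasts was 1.17 (unadjusted p = 0.00241, adjusted p = 0.369). The dated contrast has 1 library per group, so that term takes its spread from the 4 undated libraries, and it does not show that the contrasts are alike.

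Maf (ENSMUSG00000055435.6, chromosome 8, 115682942 to 115707794, minus strand), which encodes c-Maf, stood at 7.29, 7.00 and 6.89 in sufficient A1, B1 and dated. In deficient C1, D and dated it stood at 5.88, 6.02 and 6.36. Each deficient library lay below each sufficient one, and here the deficient dated library was the highest of its group, not the lowest. The means were 7.06 ± 0.21 and 6.08 ± 0.25 (SD, n = 3 each). The log2 fold change was -0.98 ± 0.19 (SE), with a 95% interval from -1.41 to -0.55 and an adjusted p of 0.106 in limma. Undated libraries differed by -1.20 (adjusted p = 0.0254 in limma) and the dated pair by -0.53. With the date block the adjusted p was 0.0421, and without the deficient dated library the fold change was -1.11 with an adjusted p of 0.0473 in limma. Il10 and Maf were the 2 of 7 tested genes whose groups did not overlap with the deficient libraries lower. Of all tested genes 6.73% showed that pattern.

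Prdm1 (ENSMUSG00000038151.13, chromosome 10, 44437177 to 44528501, minus strand), the other factor, varied widely among the sufficient libraries. It stood at 5.44, 4.71 and 3.96 in sufficient A1, B1 and dated and at 4.27, 4.77 and 4.22 in deficient C1, D and dated. All 3 deficient values lay inside the sufficient range. The log2 fold change was -0.28 ± 0.37 (SE), with a 95% interval from -1.13 to 0.57 (limma adjusted p = 0.812), and it was 0.0875 without sufficient A1. This interval includes the -0.98 estimated for Maf, so the data do not show that Prdm1 was equal in the groups.

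**Figure D2:**
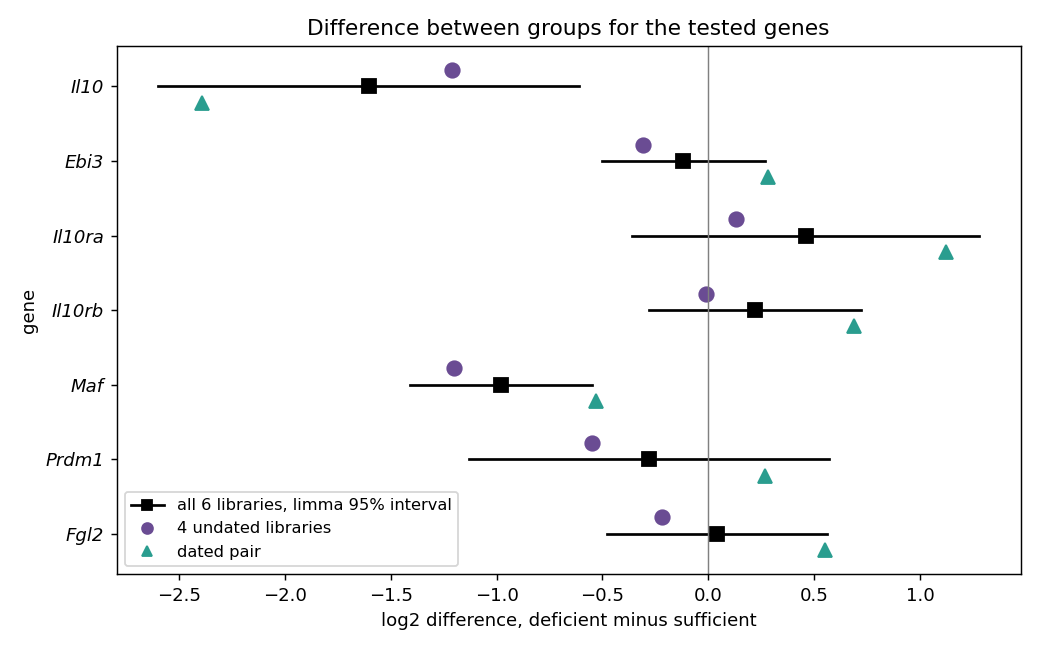
Log2 difference, deficient minus sufficient, of the 7 tested genes, with the limma estimate and 95% interval from all 6 libraries (squares and lines), the 4 undated libraries (circles) and the dated pair (triangles). Il10 and Maf are the genes whose interval excludes 0, and the dated triangle lies left of the circle for Il10 but right of it for the other 6 genes.

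Within a library, the level of Il10 relative to another gene hardly depends on how that library was scaled, at levels far above the pseudocount. Il10 exceeded Maf by 1.48, 1.51 and 1.26 on the log2 scale in sufficient A1, B1 and dated, and by 1.51 and 1.45 in deficient C1 and D. In the deficient dated library it stood at -0.60 relative to Maf. Il10 and Maf were thus lower by like amounts in the undated deficient libraries, and the dated deficient library alone departed from that ratio. The group means of this difference were 1.41 ± 0.14 and 0.79 ± 1.20 (SD, n = 3 each), with an exact two-sided permutation p of 0.6.

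Relative to Ebi3, Il10 stood at 1.33, 1.17 and 1.15 in sufficient A1, B1 and dated and at 0.39, 0.31 and -1.52 in deficient C1, D and dated. Il10 transcripts were thus 2.22 to 2.53 times those of Ebi3 in sufficient libraries, 1.31 and 1.24 times in deficient C1 and D, and 0.345 times in deficient dated. The groups did not overlap, and the exact two-sided permutation p was 0.1, the smallest possible.

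**Figure D3:**
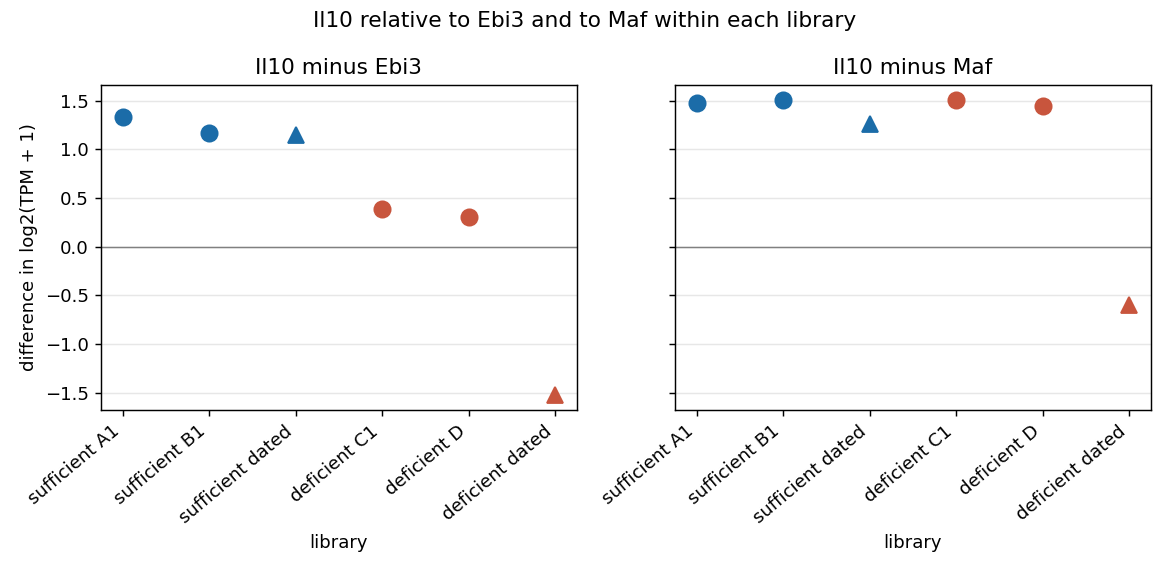
Il10 minus Ebi3 (left) and Il10 minus Maf (right) within each library, as differences in log2(TPM + 1), with 1 point per library, round where undated and triangular where dated, blue for sufficient and red for deficient. Il10 minus Ebi3 separates the groups, whereas Il10 minus Maf lies between 1.26 and 1.51 in 5 libraries and at -0.60 in deficient dated.

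Ebi3 (ENSMUSG00000003206.7, chromosome 17, 55952640 to 55957022, plus strand, 5 exons) was abundant in both groups. It stood at 7.44, 7.34 and 7.00 in sufficient A1, B1 and dated and at 7.00, 7.16 and 7.28 in deficient C1, D and dated. The values were intermixed, and the log2 fold change was -0.12 ± 0.17 (SE), with a 95% interval from -0.50 to 0.27 (limma adjusted p = 0.832). That interval excludes the values estimated for Maf and Il10. An annotated antisense gene, Gm16712, overlaps Ebi3. It reached at most 2.55, and nothing in the labels says that strand was kept.

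Il12a (ENSMUSG00000027776.12, chromosome 3, 68690644 to 68698547, plus strand) was listed at 0 in all 6 libraries and was not tested. The other genes for partner chains of this family were also at or near 0. Il12b and Il23a were listed at 0 in all 6 libraries, and Il27, the other partner of Ebi3, reached 0.07 in sufficient A1, 0.73 in deficient C1 and 0 elsewhere. Ebi3 RNA at 127 to 172 TPM was thus measured beside no listed Il12a RNA in either group. The table holds no read counts, so no upper limit for Il12a could be set.

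Because the interleukin 35 chain genes stood at opposite ends of the level range, the 250 bases before each RefSeq start (GRCm38.p6) are shown 5′ to 3′ on the plus strand, for Ebi3 at chr17:55952373-55952622 and for Il12a at chr3:68690394-68690643. The set of RefSeq windows used here covered 4 of the 8 genes, namely Ebi3, Il12a, Fgl2 and Prdm1.
Ebi3: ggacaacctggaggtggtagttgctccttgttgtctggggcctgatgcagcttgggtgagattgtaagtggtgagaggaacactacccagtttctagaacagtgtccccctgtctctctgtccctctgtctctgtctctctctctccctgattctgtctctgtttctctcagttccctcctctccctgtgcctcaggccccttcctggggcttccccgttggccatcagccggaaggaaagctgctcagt
Il12a: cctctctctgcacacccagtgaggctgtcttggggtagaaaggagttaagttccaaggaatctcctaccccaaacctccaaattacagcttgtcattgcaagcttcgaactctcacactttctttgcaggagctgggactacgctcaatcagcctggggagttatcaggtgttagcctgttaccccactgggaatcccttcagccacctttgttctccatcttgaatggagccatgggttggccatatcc
Both windows were searched on both strands for the Maf core element TGCTGA, the AP-1 element TGANTCA, the Blimp-1 core GNGAAAG, the STAT palindrome TTCNNNGAA and the TATA box TATAAA. None of these motifs occurred in either window, so no base is in capitals, and this says nothing about binding. A second Il12a start, given by RefSeq further into the gene, had 1 match to the Blimp-1 core. Among 32851 windows of the same length, 16.1%, 6.75%, 19.4%, 7.02% and 12.4% held them. The Fgl2 window held TGCTGA once, 97 bases before the start, and 1 match each to the AP-1 and STAT letters. The end of that window overlapped an exon of Fgl2 itself in the GENCODE annotation. The Prdm1 window held 1 match to the AP-1 letters, 48 bases before the start.

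The receptor chains were present in all libraries and overlapped between the groups. Il10ra (ENSMUSG00000032089.16, chromosome 9, 45253837 to 45269149, minus strand) stood at 5.27, 4.91 and 3.82 in sufficient A1, B1 and dated and at 5.17, 5.26 and 4.94 in deficient C1, D and dated. Apart from the low sufficient dated library, its values lay between 4.91 and 5.27. Its log2 fold change was 0.46 ± 0.35 (SE), with a 95% interval from -0.36 to 1.28 (limma adjusted p = 0.643), and it was 0.0365 without that library. Il10rb (ENSMUSG00000022969.13, chromosome 16, 91406164 to 91425834, plus strand) stood at 6.34, 6.08 and 6.09 against 6.00, 6.38 and 6.78, with the deficient dated library highest. Its log2 fold change was 0.22 ± 0.22 (SE; limma adjusted p = 0.734). Il10rb exceeded Il10ra in all 6 libraries, by 0.83 to 2.27 on the log2 scale.

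Fgl2 (ENSMUSG00000039899.5, chromosome 5, 21372642 to 21378374, plus strand, 2 exons) stood at 5.90, 5.74 and 5.74 in sufficient A1, B1 and dated and at 5.48, 5.72 and 6.29 in deficient C1, D and dated. The deficient libraries lay on both sides of the sufficient ones. Its log2 fold change of 0.04 ± 0.23 (SE; limma adjusted p = 0.964) turned negative with median centring (-0.097) and with quantile normalization (-0.0987). Of the Fc receptors that Fgl2 binds, Fcgr3 stood at 2.70, 3.87 and 0.60 in sufficient A1, B1 and dated and at 5.85, 2 and 0.90 in deficient C1, D and dated (limma adjusted p = 0.909). Fcgr2b, not tested, stood at 4.20 in sufficient B1 and 4.59 in deficient C1 and at 0.83 or below in the other 4 libraries. Those 2 libraries are the ones with the highest summed macrophage markers.

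In sufficient cells the order of mean levels was Il10 (361 TPM), Ebi3 (154), Maf (134), Il10rb (71.2), Fgl2 (54.6), Prdm1 (27.3) and Il10ra (26.6). Neighbours in this order did not overlap between libraries, except Ebi3 with Maf and Prdm1 with Il10ra. In deficient cells Ebi3 (141 TPM) stood above Il10 (132), Il10rb (84.7), Maf (67.6), Fgl2 (57.6), Il10ra (34.1) and Prdm1 (20.7). There the ranges of neighbours overlapped from Ebi3 down to Fgl2, while Fgl2 lay above Il10ra and Il10ra above Prdm1 without overlap.

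Other cell types can also hold some of these RNAs, so their markers stand beside the values. Macrophage marker sums ranged from 28.3 to 944 TPM in sufficient and from 21.7 to 1380 TPM in deficient libraries, and none of the 12 was at 0 in all libraries. Deficient C1 and D differed widely in that sum (1380 and 22.3) and held 166 and 176 TPM of Il10 and 57.8 and 63.7 TPM of Maf. Summed TPM of 8 B and plasma cell markers did not overlap, at 51.9 to 173 in sufficient and 190 to 243 in deficient libraries. Ms4a1 was at 0 throughout, Pax5 reached at most 0.01, and Igkc carried most of the sum. Igkc stood higher in each deficient library (log2 fold change 1.49, limma adjusted p = 0.263), as did 10.9% of all tested genes. Among undated libraries it passed at 2.05 (adjusted p = 0.00642 in limma), in a fit that called 215 of 12155 genes. The dated pair differed by 0.38. The part of macrophage and B cell markers in the Il10 and Maf results was not tested. Sums of dendritic cell markers (2.55 to 10.7 TPM), CD8 and NK cell markers (11.6 to 45.7 TPM) and tumour cell markers (9.8 to 24.5 TPM, Krt8 and Krt19 at 0) overlapped between the groups.

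The remaining genes of the pathway were read from lists described by counts and medians. Over all 12155 tested genes the median log2 fold change was 0.094, and 39.9% of values were negative. Of 20 transcription factors known to act on Il10, all 20 were tested and 0 passed in limma with all 6 libraries, with 5 at an unadjusted p under 0.05 (11.7% of all tested genes). Their median was -0.12, with 12 negative values. Nfil3, Tbx21 and Runx3 stood lower and Junb higher without overlap between the groups, where 6.73% and 10.9% of all tested genes did so. Nfil3, a bZIP factor that promotes Il10 in helper T cells, stood at 7.37, 7.19 and 6.91 in sufficient A1, B1 and dated and at 5.30, 5.47 and 6.73 in deficient C1, D and dated. For Nfil3 the undated libraries differed by -1.89, which passed (adjusted p = 0.00642 in limma), and the dated pair by -0.18, whereas for Il10 the dated pair lay further apart. Id2, an inhibitor of E proteins, was the other gene of this list to pass among undated libraries, at -0.94 (adjusted p = 0.0423 in limma), in a fit that called 0.864% of all genes lower. For Nfil3 the limma term for undated against dated had an adjusted p of 0.211, and its log2 fold change of -1.32 an adjusted p of 0.216. Junb, an AP-1 subunit, stood higher in each deficient library, at 10.45 to 10.76 against 9.61 to 10.04, with a log2 fold change of 0.72 (limma adjusted p = 0.142). In this list Stat5b alone passed with the date block, at 1.03, in a fit that called 1.12% of all genes higher (adjusted p = 0.0378 in that limma fit).

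Of 12 genes of interleukin 10 receptor signalling, 0 passed in limma, with all 6 libraries or with the date block, 2 had an unadjusted p under 0.05 with all 6 libraries (11.7% of all tested genes), and the median was 0.11. Nfil3, also in this list, was the 1 that passed among undated libraries, where limma called 0.864% of all tested genes lower. Socs1, a feedback inhibitor of cytokine receptors, stood at 5.96, 5.63 and 5.01 in sufficient A1, B1 and dated and at 6.13, 6.16 and 6.51 in deficient C1, D and dated (0.73, limma adjusted p = 0.325). Stat3, the main factor downstream of the receptor, stood at -0.33 (limma adjusted p = 0.803), and Socs3, a Stat3 target, at 0.28 (limma adjusted p = 0.681), both chosen after their values were seen. Of 11 other interleukin 10 family cytokines and receptors 0 reached 1 TPM in 3 libraries, and 7 were at 0 in all 6. Of 9 other interleukin 12 family genes 5 were tested and 0 passed in limma, with 2 at an unadjusted p under 0.05, against 11.7% of all tested genes (median -0.32). Among them Il12rb2, a receptor chain for interleukin 12 and for interleukin 35, stood at 3.14, 2.84 and 3.79 in sufficient A1, B1 and dated. In deficient C1, D and dated it stood at 2.16, 1.38 and 0.68, without overlap (log2 fold change -1.85, limma adjusted p = 0.163). Stat4, which it activates, stood higher without overlap, at 0.62 (limma adjusted p = 0.262). Of all tested genes 6.73% stood lower and 10.9% higher without overlap.

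Genes known to be raised with Maf and Prdm1 had the lowest median of these lists, -0.49 over 13 tested genes, of which 11 were negative. Cxcr6, a chemokine receptor of tissue T cells, was the 1 gene that passed, at -1.64 (limma adjusted p = 0.0221), against 0.206% of all tested genes. Tigit, an inhibitory receptor, stood lower in each deficient library at -0.58 (limma adjusted p = 0.159), as did 6.73% of all tested genes. At an unadjusted p under 0.05 there were 5 of the 13, against 11.7% of all tested genes. With the date block 4 of the 13 passed, all lower, against 0.856% of all tested genes: Havcr2, Lag3, Cxcr6 and Ccr8. Of these Havcr2, Cxcr6 and Ccr8 also passed among undated libraries, where limma called 0.864% of all tested genes lower. Havcr2 is the gene targeted by the design, so its place in this list, its median and its counts is no independent sign. The lists were chosen with earlier results of these data known, so the shares of all genes are no test of a list. Of 14 other suppressive mediators 0 passed in limma with all 6 libraries and 5 had an unadjusted p under 0.05, against 11.7% of all tested genes. In this list 11 were negative (median -0.38). With the date block 4 passed, all lower, against 0.856% of all tested genes: Itgb8, Itgav, Entpd1 and Lag3. Lag3 is also in the list of genes raised with Maf and Prdm1, so the counts of these lists share it. Itgav, Entpd1 and Il2ra passed among undated libraries, all lower, against 0.864% of all tested genes. In the dated pair Itgav and Entpd1 were lower too (-1.49 and -0.95), whereas Il2ra was higher (0.43). Entpd1, an ectoenzyme that degrades ATP, stood at 6.76, 6.50 and 6.20 in sufficient A1, B1 and dated and at 5.22, 5.48 and 5.26 in deficient C1, D and dated (-1.17, limma adjusted p = 0.0727). Itgav, an integrin chain that can activate latent TGF-beta, stood at -1.41 (limma adjusted p = 0.0961).

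Of 8 RNA-binding proteins that set the half-life of cytokine mRNA, 0 passed in limma with all 6 libraries (median 0.21). Zfp36 was the 1 gene at an unadjusted p under 0.05 (11.7% of all tested genes) and the 1 that passed with the date block (1.12% of all genes higher). Zfp36 encodes tristetraprolin, which binds AU-rich elements of cytokine mRNA, that of Il10 included. It stood at 7.21, 6.96 and 7.07 in sufficient A1, B1 and dated and at 7.63, 8.00 and 8.47 in deficient C1, D and dated (log2 fold change 0.95, limma adjusted p = 0.152). Elavl1, which stabilises such mRNA, stood at -0.55 (limma adjusted p = 0.569), with the deficient dated library highest of all at 6.41.

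**Figure D4:**
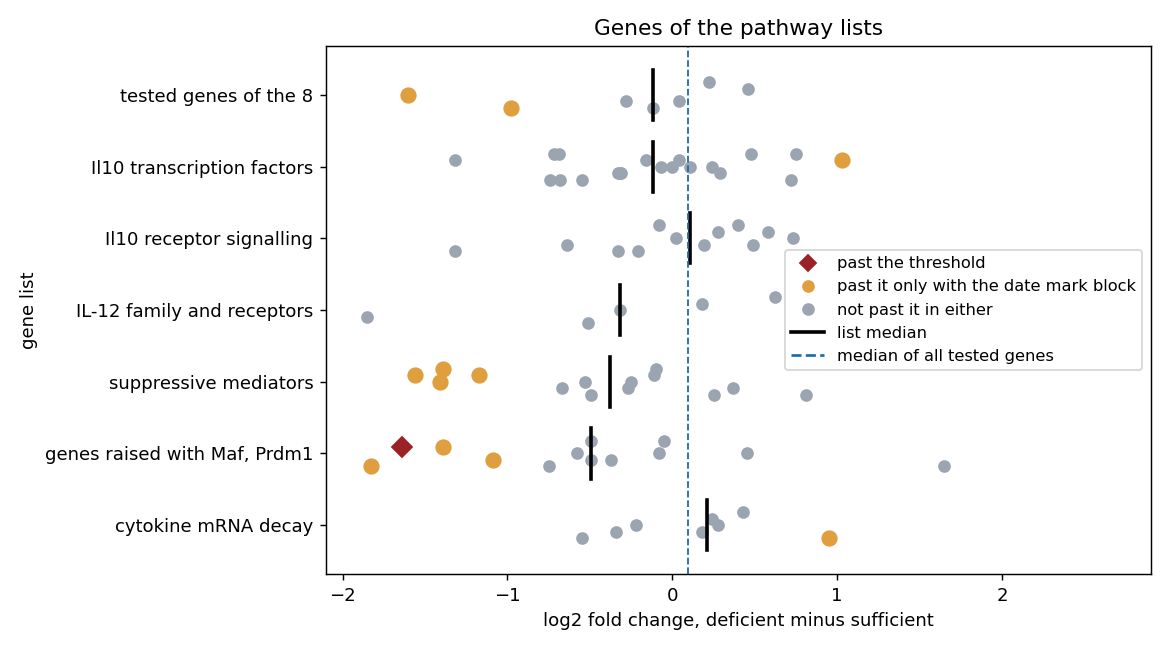
Log2 fold change, deficient minus sufficient, of each tested gene of the lists, with the list median as a black bar and the median of all tested genes (0.094) as a dashed line; red diamonds passed the threshold and orange circles passed it only with the date mark block. Cxcr6 is the 1 red diamond, and the genes raised with Maf and Prdm1, Havcr2 included, have the lowest median at -0.49.

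The genes nearest to Il10 in pattern, by the root mean square distance of centred log2 values over the 6 libraries among 10041 named genes, were Cd70, Lag3, Litaf and Zc3h12c. Their distances were 0.18, 0.22, 0.24 and 0.29, and in each the deficient dated library was lowest, as it was for Il10. Cd70, a TNF family ligand, stood at 3.30, 3.20 and 2.97 in sufficient A1, B1 and dated and at 2.28, 2.59 and 0.58 in deficient C1, D and dated. Maf lay at a distance of 0.77 from Il10, in place 541. Nearest to Maf were Ctsw, Picalm, Hnrnpa0 and Cd44, at distances of 0.08 to 0.10, each with a log2 fold change from -0.96 to -0.88. Nearest to Ebi3 were Fam173a, Pnpla6, March2 and Capg, at distances of 0.04 to 0.06, with log2 fold changes from -0.21 to -0.09. The distances describe likeness in these 6 libraries, which share their groups and date marks.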

How the data were processed

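Per the labels' protocols, Treg cells were sorted into lysis buffer, and Nextera XT libraries were read as 75 bp pairs. The submitters' processing notes name STAR, RSEM and limma, with no versions, and the builds GRCm38 and mm10. The deposited table holds log2 values. Their antilogs less 1 summed to 999999 to 1000001 in each library, which makes them log2(TPM + 1). All 55450 identifiers matched GENCODE mouse release 21 on GRCm38, which gave symbols and coordinates. Promoter windows came from RefSeq on GRCm38.p6. Column names gave the group but no replicate number.

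Genes at 1 TPM or more in at least 3 libraries (12155) were compared with limma 3.58.1 (R 4.3.3; lmFit, eBayes with a mean-variance trend, no covariate), two-sided, with Benjamini-Hochberg adjustment over all tested genes and a threshold of 0.05. Standard errors and 95% intervals are limma's moderated ones. Fold changes are differences in log2(TPM + 1), which understate low genes. Within-library differences were compared by exact permutation. A limma fit of the main design, without the date block, was checked on simulated data with known changes. The other steps were not checked in that way. Tables used Python 3.11.15, pandas 2.3.3 and scipy 1.17.1, and plots matplotlib 3.10.9. Named genes were the 8 members, Havcr2, each list's genes past the threshold and its 2 of smallest p, and the 4 genes nearest in pattern to Il10, Ebi3 and Maf. Markers and any other gene named with values or calls (Tbx21, Runx3, Stat5b, Id2, Itgb8, Ccr8, Il2ra, Fcgr2b, Stat3, Socs3) were chosen from the lists after their values were seen. The members and lists were chosen with earlier results of these data known. The alternatives covered the filter, normalization, pseudocount, variance model, date mark and each library left out. The date by group term was added after seeing the data.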

Additional observations from a re-analysis of the deposited data

How the results depend on the processing

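No paired analysis was possible because the column names carry no replicate number, so the numbers of the labels could not be joined to the values. With all 6 libraries 0 of the 7 tested genes were called. The count was 2 (Il10 and Maf) with the date mark block and among undated libraries alone, and 1 (Il10) with no filter on low values, where most genes have no variance and limma warns that the fit is unreliable. Leaving out each library gave 0 to 1, the 1 being Maf without deficient dated. Over all genes, 25 were called with all 6 libraries, 240 with the date block, 249 with no filter, 215 among undated libraries, 38 with quantile normalization, 4 without the variance trend, and 121, 24, 11, 2, 0 and 0 without deficient dated, sufficient dated, deficient C1, sufficient A1, sufficient B1 and deficient D.

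Il10 passed at -1.60 with the date block and with no filter (adjusted p = 0.00446 in limma) and at -1.21 among undated libraries. It was -2.39 in the dated pair and -1.90 to -1.05 with each library left out. Its limma adjusted p ranged from 0.00446 to 0.503 over 15 alternatives with a test, the highest without sufficient A1. Maf passed at -0.98 with the date block, at -1.20 among undated libraries and at -1.11 without deficient dated. It was -0.53 in the dated pair and -1.11 to -0.86 with each library left out, with limma adjusted p from 0.0254 to 0.362. Ebi3 turned to 0.28 in the dated pair and was -0.24 to -0.0276 with each library left out. Prdm1 turned to 0.27 in the dated pair and was -0.65 to 0.0875 with each library left out. Il10ra was 1.12 in the dated pair and 0.0365 to 0.76 with each library left out. Il10rb was -0.0143 among undated libraries, 0.69 in the dated pair and 0.0247 to 0.41 with each library left out. Fgl2 was -0.097 with median centring, -0.0987 with quantile normalization, -0.22 among undated libraries, 0.55 in the dated pair and -0.19 to 0.21 with each library left out. Median centring moved all fold changes by -0.13 and quantile normalization moved the median by -0.10. Of 112 values of the 7 genes under the alternatives, 93 kept their direction and their side of the threshold. The cause of the others was not tested.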
